A study of Homo sapiens with 7 samples.

Results

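The PEA3 ETS factors and the feedback inhibitors of the MAPK pathway were followed through 7 RNA-Seq libraries of esophageal squamous cell carcinoma cells. They comprised 10 genes chosen by name, of 39584 genes with a count: *ETV4*, *ETV5* and *ETV1* (PEA3 factors), *DUSP4*, *DUSP5* and *DUSP6* (ERK phosphatases), and *SPRY2*, *SPRY4*, *SPRED1* and *SPRED2* (Sprouty and Spred inhibitors). The established lines TE5 and KYSE140 had each been given a scramble shRNA, an shRNA against TP63 (shTP63) or an shRNA against SOX2 (shSOX2), and TE5 cells also an shRNA against the lncRNA CCAT1 (shCCAT1). Each of the 4 TE5 and 3 KYSE140 conditions had 1 library, and differences between conditions of a line are therefore unreplicated. KYSE140 cells with CCAT1 shRNA were not analysed here. The question was whether *ETV4* moved together with other genes of ERK output upon silencing of TP63, SOX2 or CCAT1.

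ERK, the last kinase of the RAS-MAPK cascade, switches on transcription of its own inhibitors and of the PEA3 factors. *ETV1*, *ETV4* and *ETV5* encode closely related ETS transcription factors that carry growth factor signals to genes of proliferation and invasion. The dual specificity phosphatases DUSP4, DUSP5 and DUSP6 remove phosphate from ERK, while Sprouty and Spred proteins act higher in the cascade, at receptors, RAS and RAF. The repressor CIC (capicua) holds many of these genes down through octamer motifs until ERK signalling releases it, which is why their mRNAs are commonly read as ERK output.

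Promoter sequence is shown for the genes with a CIC octamer near their start. RefSeq promoter windows (GRCh38.p14, 250 bases before to 50 after a start) were used for 6 of the 10 genes, in 14 windows; *ETV4*, *ETV5*, *DUSP4* and *DUSP5* were not used here. The octamers TGAATGAA, TGAATGGA, TCAATGAA and TCAATGGA were searched on both strands, and 3.77% of 35116 windows of all genes held at least 1. Among the windows of the 10 genes, 2 held 1, that of *DUSP6* with 2 octamers and that of a start of *ETV1* with 1. The stretches printed run from 250 bases before to 10 bases after the start, on the minus strand, at chr12:89352492-89352751 for *DUSP6* and at chr7:13991416-13991675 for *ETV1*, with the octamers in capitals.
DUSP6: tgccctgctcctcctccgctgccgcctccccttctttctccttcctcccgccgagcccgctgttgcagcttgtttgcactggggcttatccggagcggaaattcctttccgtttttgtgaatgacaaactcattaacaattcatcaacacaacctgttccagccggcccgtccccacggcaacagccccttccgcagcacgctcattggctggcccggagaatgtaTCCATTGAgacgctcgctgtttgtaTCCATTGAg
ETV1: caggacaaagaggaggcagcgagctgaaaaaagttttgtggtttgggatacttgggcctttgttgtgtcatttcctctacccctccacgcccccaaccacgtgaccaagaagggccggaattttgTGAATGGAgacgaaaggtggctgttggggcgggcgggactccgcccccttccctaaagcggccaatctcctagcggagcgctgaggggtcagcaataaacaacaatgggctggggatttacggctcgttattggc
The AP-1 heptamer TGANTCA was in 1 of the 14 windows (*SPRED2*, with 2 matches) and in 7.71% of all windows. The SOX hexamer ACAATG shares the run CAATG with 2 of the CIC octamers. It was in 3 of the 14 windows, counting overlapping windows of *ETV1* that hold the same match, and in 10.8% of all. The PEA3 heptamer AGGAAGT (8.24% of all windows) and the p53-family decamer (6.63%) were in 0 of them. These matches describe the letters of the windows and are no evidence of binding.

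In all 7 libraries 11 or 12 of 12 squamous markers reached 1 TPM, with *KRT5* at 201 to 702 TPM in TE5 and 4920 to 12300 TPM in KYSE140, whereas *KRT14* stayed at 0.202 to 0.546 TPM in TE5. The leukocyte list was led by *CD68* (48.6 to 116 TPM in TE5, 2.57 to 14.6 TPM in KYSE140), with *PTPRC* at 0.236 TPM or less, and its sum was highest in TE5 shTP63, at 117 TPM against 69.5 TPM in scramble. The 3 endothelial markers measured summed to 9.31 TPM in TE5 shTP63, 4.38 TPM in shSOX2 and 2.39 TPM in scramble. Of the 6 fibroblast markers *COL1A1* reached 12.6 to 44.4 TPM and the others stayed at 1.73 TPM or less. Of the 4 that could be compared in TE5, 3 were past 1 on the log2 scale in shTP63 (median 2.10, 14.4% of all genes past 1). In shSOX2 3 were (median 1.55, 6.15% of all genes). *COL1A2* and *DCN* had only 14 and 5 normalized counts in TE5 scramble. *COL1A1* was at 4019 and 2568 normalized counts in shTP63 and shSOX2 against 2327 in scramble, and *COL3A1* at 476 and 420 against 77. *CDH5*, an endothelial marker, was at 1397 and 741 normalized counts against 290. Of the 12 squamous markers 11 were below 0 in TE5 shTP63 (median -0.68), 7 in TE5 shSOX2 (median -0.12) and 12 in TE5 shCCAT1 (median -0.37). Of all genes 47.0%, 50.7% and 47.1% were. In KYSE140 10 markers were below 0 in shTP63 (median -0.52, 45.6% of all genes). In KYSE140 shSOX2 11 were above 0 (median 0.43, 54.5% of all genes). The list includes the silenced TP63 and SOX2, so part of the shTP63 and shSOX2 counts was fixed in advance. The part of these markers in the differences of the 10 genes was not tested. The columnar marker *CDX2* was at 5.7 to 12.1 TPM in TE5 and at 0.0 TPM in KYSE140. TP63 was at 25.6% of its scramble level in TE5 shTP63 and 26.1% in KYSE140 shTP63. SOX2 was at 39.5% in TE5 shSOX2 and at 76.6% in KYSE140 shSOX2. In the shTP63 libraries SOX2 was at 66.3% of scramble in TE5 and 103.9% in KYSE140. TP63 was at 115.9% and 125.7% in shSOX2 of TE5 and KYSE140, and shTP63 against shSOX2 holds that rise as well. CCAT1 is not a gene name in the annotation used, so its transcript ENST00000500112, which that annotation counts under *CASC19*, was taken for it, and it was at 175 normalized counts in TE5 shCCAT1 against 568 in scramble. The TE5 scramble library was run on another flow cell, and the KYSE140 scramble library in another lane, than the knockdown libraries of the line, so silencing and sequencing run cannot be told apart in a comparison with scramble. The shTP63 and shSOX2 libraries of a line shared a lane.

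In scramble cells the lines held similar *ETV4*, *DUSP5* and *SPRED1*, and differed most in *DUSP4*, *DUSP6*, *ETV5* and *SPRY2*. *ETV4* was at 26.2 TPM in TE5 and 28.8 TPM in KYSE140 (TPM is scaled for transcript length, so levels can be set beside each other between genes). *ETV5* was at 22.4 and 6.09 TPM, and *ETV1* at 2.92 and 4.05 TPM. *DUSP6* was the most abundant of the 10 genes in TE5 scramble, at 44.3 TPM, and was at 5.67 TPM in KYSE140. *DUSP4* was at 2.84 TPM in TE5 and 0.35 TPM in KYSE140, where it was the least abundant. *SPRY2* was in the opposite order, at 5.23 TPM in TE5 and 15.5 TPM in KYSE140. The remaining genes, *DUSP5*, *SPRY4*, *SPRED1* and *SPRED2*, were at 8.73, 1.36, 5.01 and 34.9 TPM in TE5 and at 8.0, 1.91, 4.85 and 18.4 TPM in KYSE140. The gap of *SPRED2* was not there in normalized counts, at 3922 and 4045.

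**Figure D1:**
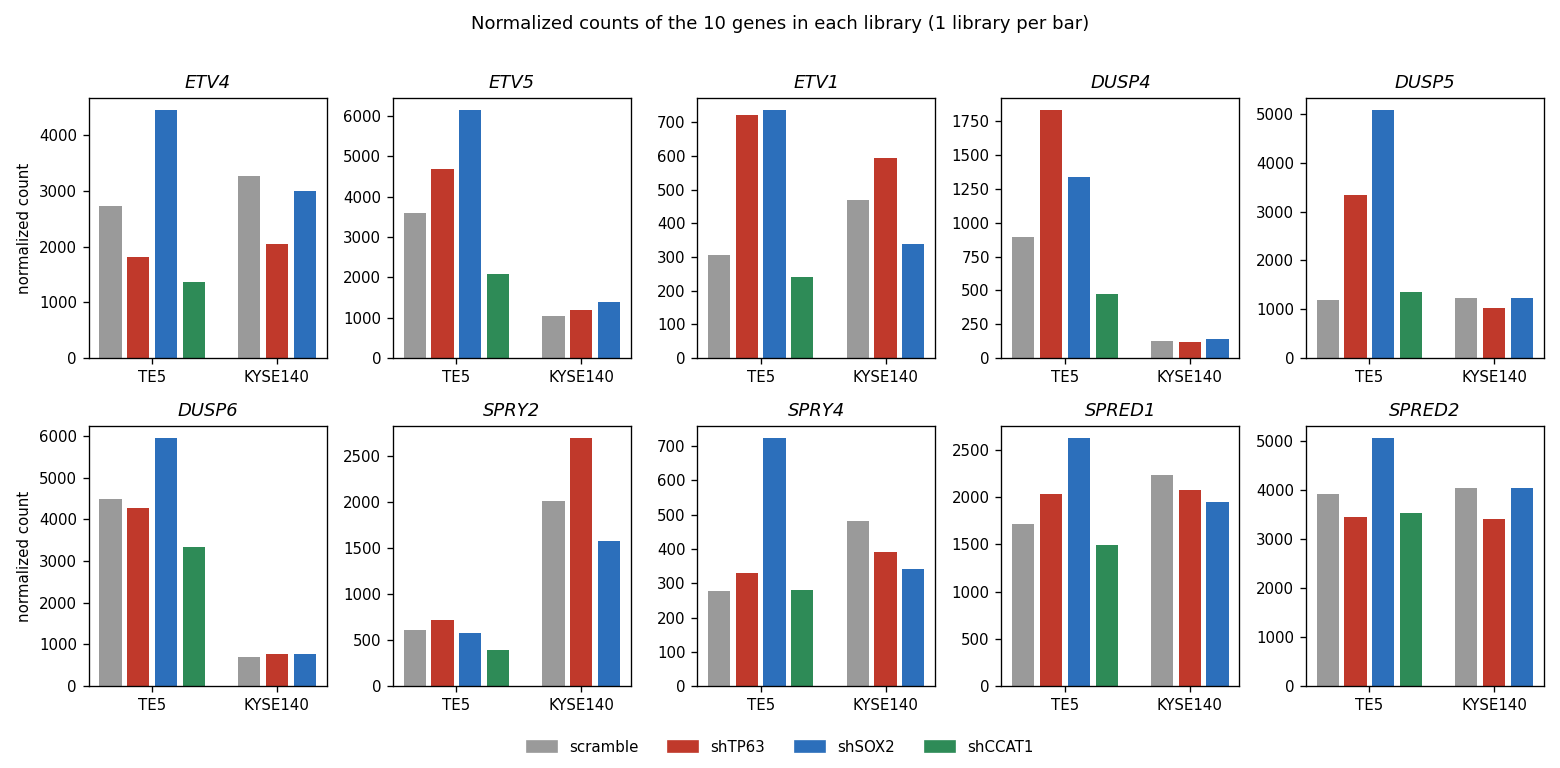
Normalized counts (y axis, linear from 0) of the 10 genes, 1 panel a gene and 1 library a bar, with TE5 on the left and KYSE140 on the right of each panel. In TE5, 8 of 10 genes are highest in shSOX2 and 7 of 10 are lowest in shCCAT1. The share of all genes with that order was not counted.

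*ETV4* (ENSG00000175832, hg19 chr17:41605212-41656988) was lower upon TP63 silencing in both lines. Its normalized counts (counts scaled to a common library size) were 2731 in TE5 scramble, 1813 in shTP63, 4445 in shSOX2 and 1368 in shCCAT1. In KYSE140 they were 3266 in scramble, 2040 in shTP63 and 2988 in shSOX2. The shTP63 library thus lay below scramble and below shSOX2 in both lines, and shSOX2 lay above scramble only in TE5. The log2 difference from scramble was -0.59 (-0.67 to -0.51) in TE5 shTP63 and -0.68 (-0.76 to -0.59) in KYSE140 shTP63. Brackets hold 95% exact binomial intervals, which cover counting error only. Upon SOX2 silencing it was 0.70 (0.63 to 0.77) in TE5 and -0.13 (-0.21 to -0.05) in KYSE140. Upon CCAT1 silencing *ETV4* was at 50.1% of scramble, a difference of -0.997 (-1.09 to -0.91), which lay just inside the limit of -1 used to call a gene lower. On the TPM scale the *ETV4* differences were -0.34 in TE5 shTP63 and -0.31 in KYSE140 shSOX2, moved from -0.59 and -0.13, with the same directions. With DESeq2's size factors or with protein-coding transcripts alone *ETV4* in TE5 shCCAT1 passed that limit, at -1.04 and -1.01.

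*ETV5* (ENSG00000244405, hg19 chr3:185764103-185828107) was not lowered with *ETV4* upon TP63 silencing. Its normalized counts were 3593 in TE5 scramble, 4684 in shTP63, 6138 in shSOX2 and 2071 in shCCAT1, and 1047, 1197 and 1380 in KYSE140 scramble, shTP63 and shSOX2. Every shTP63 and shSOX2 library was above its scramble library, and shCCAT1 was below. The log2 differences were 0.38 (0.32 to 0.44) and 0.19 (0.06 to 0.32) for shTP63 in TE5 and KYSE140, 0.77 (0.71 to 0.83) and 0.40 (0.26 to 0.53) for shSOX2, and -0.80 (-0.87 to -0.72) for shCCAT1. On the TPM scale the KYSE140 shTP63 difference turned, to -0.17 from 0.19. *ETV1* (ENSG00000006468, hg19 chr7:13930854-14031050) was the scarcest PEA3 factor, with normalized counts of 305 in TE5 scramble, 722 in shTP63, 736 in shSOX2 and 241 in shCCAT1. In KYSE140 they were 470 in scramble, 595 in shTP63 and 338 in shSOX2. It was past the limit of 1 in TE5 shTP63, at 1.24 (1.05 to 1.44), and in TE5 shSOX2, at 1.27 (1.07 to 1.47). In KYSE140 *ETV1* was 0.34 (0.15 to 0.53) for shTP63 and -0.47 (-0.71 to -0.24) for shSOX2. In TE5 shCCAT1 it was -0.34 (-0.58 to -0.10). The *ETV1* estimates spread over 9 transcripts with at least 10% of its counts in some library, and 3 of its 24 transcripts were placed in the gene only by their neighbours in the deposited table. Without such transcripts *ETV1* was -0.76 in TE5 shCCAT1 and -0.27 in KYSE140 shSOX2, with the same directions.

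The mix of PEA3 mRNAs therefore differed by line and by silencing. *ETV4* made up 73.9% of the summed TPM of the 3 factors in KYSE140 scramble, 65.9% in shTP63 and 68.7% in shSOX2. In TE5 it made up 50.9% in scramble, 38.0% in shTP63, 51.8% in shSOX2 and 46.8% in shCCAT1. *ETV4* was the most abundant factor in 5 of the 7 libraries; in TE5 shTP63 and TE5 shCCAT1 *ETV5* was, with 27.6 against 20.7 TPM and 15.6 against 15.0 TPM. The sum of the 3 was 85.0 TPM in TE5 shSOX2 and 32.1 TPM in TE5 shCCAT1, the highest and lowest TE5 values.

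**Figure D2:**
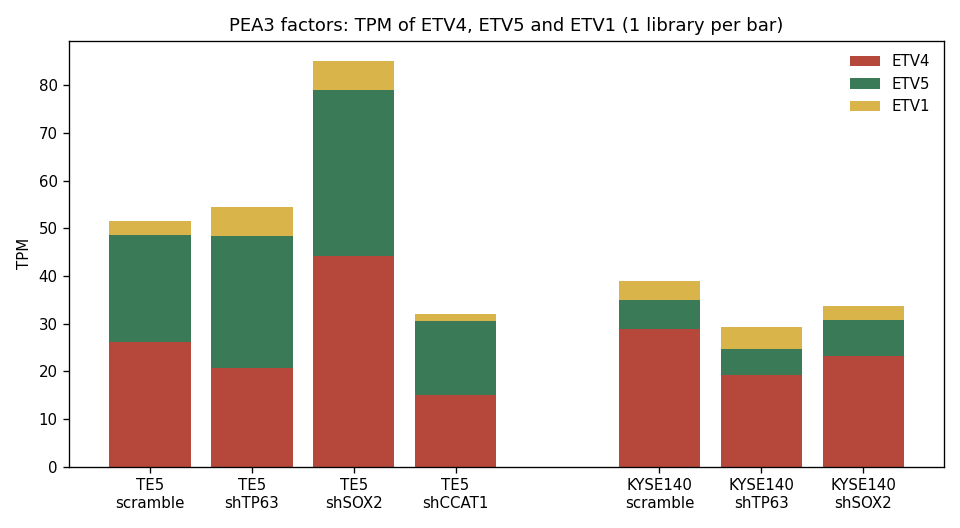
Summed TPM (y axis) of *ETV4*, *ETV5* and *ETV1*, 1 library a bar. *ETV4* is the largest share in every KYSE140 library (65.9% to 73.9%), and *ETV5* exceeds it in TE5 shTP63 and TE5 shCCAT1.

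Within *ETV4*, the summed estimate of 2 long transcripts with an upstream first exon was lower in all 5 knockdown libraries. Transcripts ENST00000319349 and ENST00000545954 begin in an exon at chr17:41623553-41623708 (hg19, minus strand; ends are those of the first transcript named). Transcripts ENST00000538265 and ENST00000591713 begin in one at chr17:41623229-41623305, and ENST00000393664 and ENST00000545089 begin in one at chr17:41622926-41623039, downstream of both. The other 5 transcripts, each of fewer than 10 exons, which held 3.6% to 7.3% of the counts, were kept apart, and 2 of them, ENST00000585508 and ENST00000587151, also begin in the upstream and the middle exon. ENST00000585508, which begins upstream, was above scramble in TE5 shTP63, TE5 shSOX2 and KYSE140 shTP63, with 35.7, 47.8, 82.3 and 32.2 normalized counts in TE5 scramble, shTP63, shSOX2 and shCCAT1, and 71.3, 80.6 and 26.7 in KYSE140 scramble, shTP63 and shSOX2. The upstream class had 1055 normalized counts in TE5 scramble, 384 in shTP63, 692 in shSOX2 and 192 in shCCAT1, and 603, 184 and 386 in KYSE140 scramble, shTP63 and shSOX2. Its log2 differences from scramble were -1.46, -0.61 and -2.46 in TE5 and -1.70 and -0.64 in KYSE140, beside -0.59, 0.70, -0.997, -0.68 and -0.13 for the whole gene in the same order. The downstream class had 352 normalized counts in TE5 scramble, 682 in shTP63, 1921 in shSOX2 and 308 in shCCAT1, so it was above scramble in shTP63 and shSOX2 and below it in shCCAT1. In KYSE140 that class had 1870, 1147 and 1877 normalized counts and held 57.2%, 56.2% and 62.8% of the gene. The middle class had 1225, 617, 1530 and 772 normalized counts in TE5 scramble, shTP63, shSOX2 and shCCAT1, and 604, 559 and 578 in KYSE140 scramble, shTP63 and shSOX2. The annotated start codon is at 41622985 in ENST00000319349 and ENST00000393664 and further in, at 41622678, in ENST00000538265 and ENST00000545954. These splits are estimates of the pseudoalignment: ENST00000393664 has 0 words of 31 bases that no other *ETV4* transcript holds, and ENST00000319349, ENST00000538265 and ENST00000545954 have 17, 28 and 27. The grouping by first exon was made after the transcript values were seen.

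**Figure D3:**
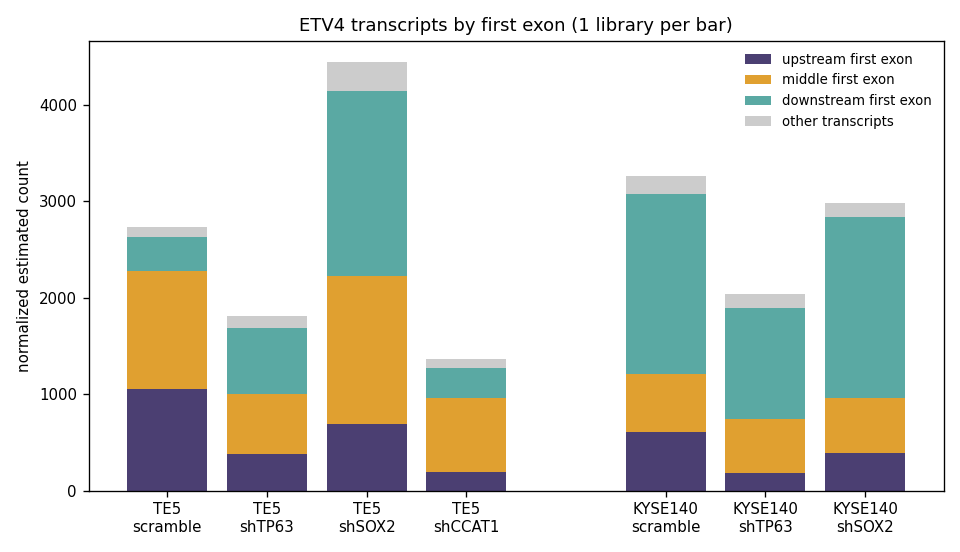
Normalized estimated counts (y axis) of *ETV4* transcripts stacked by first exon, 1 library a bar. The upstream class is smaller in each knockdown library than in the scramble library of its line (192 to 692 against 1055 in TE5, 184 and 386 against 603 in KYSE140).

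Of the ERK phosphatases *DUSP4* and *DUSP5* were higher in TE5 upon TP63 and SOX2 silencing, *DUSP6* upon SOX2 silencing alone, and in KYSE140 all 3 stayed within -0.26 and 0.20 of scramble on the log2 scale. *DUSP5* (ENSG00000138166), a nuclear phosphatase of ERK, had normalized counts of 1198 in TE5 scramble, 3347 in shTP63, 5077 in shSOX2 and 1343 in shCCAT1, against 1236, 1032 and 1226 in KYSE140 scramble, shTP63 and shSOX2. The TE5 differences of 1.48 (1.39 to 1.58) and 2.08 (1.99 to 2.18) for shTP63 and shSOX2 were past the limit, and that of shSOX2 was the largest among the 10 genes over the 5 comparisons with scramble. In KYSE140 they were -0.26 (-0.39 to -0.13) and -0.01 (-0.14 to 0.12). *DUSP4* (ENSG00000120875), also nuclear, had normalized counts of 893 in TE5 scramble, 1831 in shTP63, 1339 in shSOX2 and 475 in shCCAT1, with differences of 1.04 (0.92 to 1.15), 0.58 (0.46 to 0.71) and -0.91 (-1.07 to -0.76). In KYSE140 it had 123, 121 and 141 normalized counts, and both intervals held 0. *DUSP6* (ENSG00000139318), the cytoplasmic ERK phosphatase, had 4476, 4276, 5943 and 3330 normalized counts in TE5 scramble, shTP63, shSOX2 and shCCAT1, and 702, 766 and 777 in KYSE140 scramble, shTP63 and shSOX2. It was 0.41 (0.35 to 0.47) in TE5 shSOX2 and -0.43 (-0.49 to -0.36) in TE5 shCCAT1, and -0.07 (-0.12 to -0.01) in TE5 shTP63, where the sign turned without scaling between libraries (0.09) and on the TPM scale (0.11). Of its words of 31 bases 26.27% are shared with an antisense lncRNA (ENSG00000274021), not quantified here, so reads of that RNA cannot be told apart from *DUSP6*.

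The Sprouty and Spred genes split. *SPRY4* (ENSG00000187678) had normalized counts of 277 in TE5 scramble, 330 in shTP63, 723 in shSOX2 and 280 in shCCAT1, and 483, 390 and 343 in KYSE140. The TE5 shSOX2 library stood above all others, at a difference of 1.38 (1.17 to 1.59), whereas in KYSE140 both knockdowns were below scramble, at -0.31 (-0.52 to -0.10) for shTP63 and -0.49 (-0.72 to -0.26) for shSOX2. *SPRY2* (ENSG00000136158) had 607, 717, 580 and 390 normalized counts in TE5 scramble, shTP63, shSOX2 and shCCAT1, and 2013, 2697 and 1583 in KYSE140 scramble, shTP63 and shSOX2. It was higher in shTP63 of both lines, by 0.24 (0.09 to 0.39) in TE5 and 0.42 (0.33 to 0.51) in KYSE140, the reverse of *ETV4*. In TE5 shCCAT1 it was -0.64 (-0.82 to -0.46). *SPRED1* and *SPRED2*, which restrain RAS, stayed within -0.25 and 0.61 of scramble in all 5 comparisons. In TE5 shCCAT1 *SPRED1* was -0.20 and *SPRED2* -0.15 in counts, but 0.37 and 0.38 on the TPM scale, so their direction there is not settled. *SPRED2* was also -0.19 in counts and 0.31 on the TPM scale in TE5 shTP63.

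**Figure D4:**
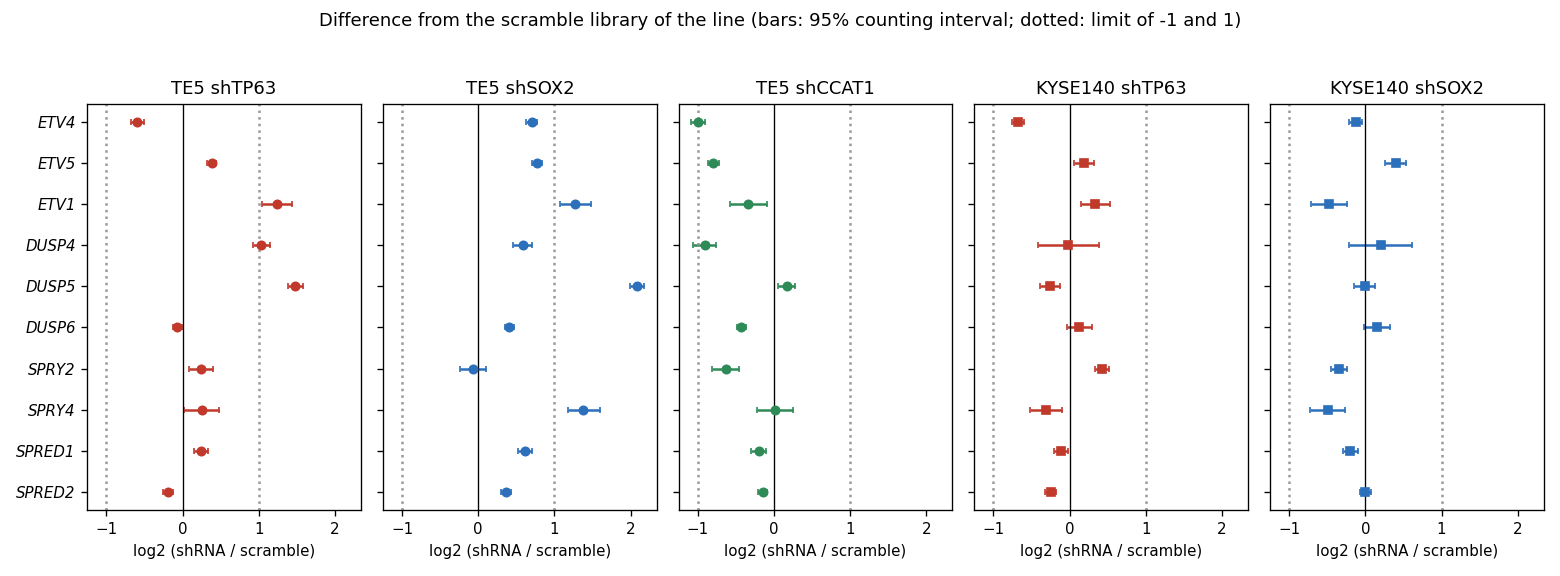
Log2 difference of each knockdown library from the scramble library of its line (x axis) for the 10 genes, with 95% counting intervals as bars and the limits of -1 and 1 dotted. In TE5 shSOX2 9 of 10 genes lie above 0, in TE5 shCCAT1 8 of 10 lie below, and in KYSE140 no gene passes a limit.

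Counted together, the 10 genes lay mostly above scramble upon SOX2 silencing and mostly below it upon CCAT1 silencing in TE5. In TE5 shTP63 most lay above it, and in KYSE140 they were divided. In TE5 shSOX2 9 genes had an interval above 0 and 0 an interval below it, where 27.2% and 30.1% of all genes tested did (33.2% and 39.9% of those with 100 counts in either library), with a median difference of 0.66 against -0.01 over all 22792 genes tested. Past the limits lay 3 genes higher (*ETV1*, *DUSP5* and *SPRY4*) and 0 lower, where 6.15% and 4.8% of all genes did. In TE5 shCCAT1 1 gene had an interval above 0 and 8 an interval below it, beside 32.0% and 32.3% of all genes (33.5% and 42.2% of those with 100 counts), with a median of -0.38 against 0.03, and 0 genes were past a limit, where 11.9% of all genes were higher and 5.77% lower. The exceptions in shCCAT1 were *DUSP5*, at 0.17 (0.06 to 0.28), and *SPRY4*, at 0.01 (-0.22 to 0.25). On the TPM scale 7 genes were below 0 in TE5 shCCAT1 and 3 above it, with *ETV1* (-0.95), *DUSP4* (-0.82) and *ETV4* (-0.80) the lowest. The median there was -0.439, against 0.135 over all genes. In TE5 shTP63 7 genes had an interval above 0 and 3 below it (*ETV4*, *DUSP6* and *SPRED2*), beside 32.8% and 33.7% of all genes, with a median of 0.25 against 0.05. On the TPM scale 9 lay above 0 there, but the median over all genes was higher too, at 0.216 beside 0.381 for the 10 genes. In that library 3 genes were higher past the limit (*ETV1*, *DUSP4* and *DUSP5*) and 0 lower, beside 14.4% and 5.64% of all genes. The share of higher genes there has to be read against that background, which includes genes with few counts. With a minimum of 50 counts, which all 10 genes reached, 1364 of 17821 genes were higher and 793 lower in TE5 shTP63. In TE5 shSOX2 326 of 16688 were higher and 348 lower, and in TE5 shCCAT1 716 of 17574 and 461. In KYSE140 443 of 16111 were higher and 322 lower in shTP63, and 438 of 15444 and 415 in shSOX2. In KYSE140 0 of the 10 genes were past a limit in shTP63 (8.62% of all genes higher, 4.18% lower) or shSOX2 (6.77% higher, 6.2% lower), and the medians were -0.07 in both. Intervals lay above 0 for 3 and below it for 5 genes in KYSE140 shTP63, beside 30.2% and 27.8% of all genes, and for 1 and 5 genes in KYSE140 shSOX2, beside 33.8% and 27.1%. The differences of a line share its scramble library. Without scaling between libraries the median over all genes moved from 0.05 to 0.20 in TE5 shTP63 and from 0.03 to 0.19 in TE5 shCCAT1.

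*ETV4* did not lie nearest to the other 9 genes. Likeness was measured as the root mean square difference between the 5 log2 differences of a gene and those of *ETV4*, over the 12246 genes that reached 100 counts in all 7 libraries. It depends on the size of the differences as well as their direction, so genes that changed little can rank near *ETV4*. *SPRED2*, for example, stayed within -0.25 and 0.37 of scramble. *SPRED2* ranked 540 (4.4% from the top), *DUSP6* 1057 (8.6%), *SPRED1* 1946 (15.9%) and *ETV5* 3698 (30.2%). *SPRY4* and *SPRY2* were near the middle, at 47.8% and 55.6%. *ETV1* was at 94.2% and *DUSP5* at 98.7%, among the least like. *DUSP4* had fewer than 100 counts in a library and was not ranked. The 5 genes nearest to *ETV4* were *MFSD2A*, *NDRG1*, *RCOR2*, *FAM21B* and *TPST1*, at 0.20 to 0.25.

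Set against each other within a lane, the shTP63 libraries held less *ETV4* than the shSOX2 libraries in both lines. The log2 difference of shTP63 against shSOX2 was -1.29 (-1.37 to -1.22) in TE5 and -0.55 (-0.64 to -0.47) in KYSE140. In TE5 *SPRY4* was lower as well, at -1.13 (-1.31 to -0.95), giving 2 genes lower and 0 higher past the limits, where 6.29% of all genes were lower and 13.8% higher. In KYSE140 0 genes were past them, beside 6.57% lower and 10.4% higher. *SPRY2* was the gene higher in shTP63 than in shSOX2 in both lines with both intervals above 0, at 0.30 (0.15 to 0.46) and 0.77 (0.67 to 0.86). *ETV5*, *DUSP5* and *SPRED2* were lower in both lines with both intervals below 0, at -0.39, -0.60 and -0.56 in TE5 and -0.21, -0.25 and -0.25 in KYSE140. The KYSE140 value of *ETV5* was -0.09 without the transcript placed by its neighbours. On the TPM scale the KYSE140 values were -0.27 for *ETV4*, -0.02 for *DUSP5* and -0.05 for *SPRED2*.

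With the lines as replicates, no member passed edgeR's quasi-likelihood test, which calls a feature at a Benjamini-Hochberg adjusted p under 0.1. *ETV4* came closest for shTP63 against shSOX2, at a log2 difference of -0.93 ± 0.23 (SE), an edgeR p of 0.00615 and an adjusted p of 0.145, lower in 2 of 2 lines. Over the alternatives, leaving out libraries included, the adjusted p ran from 0.00726 (DESeq2) to 1.0 (no term for the line), and leaving out 1 library moved the estimate between -1.30 and -0.50. For shTP63 against scramble *ETV4* was -0.63 ± 0.23 (edgeR, adjusted p = 0.348), and for shSOX2 against scramble 0.31 ± 0.23 (edgeR, adjusted p = 0.796). *ETV5* was 0.59 ± 0.16 for shSOX2 against scramble (edgeR, adjusted p = 0.446), higher in 2 of 2 lines, with an adjusted p of 0.0637 to 1.0 over the alternatives, lowest with DESeq2. *SPRY2* was 0.55 ± 0.19 for shTP63 against shSOX2 (edgeR, adjusted p = 0.246), higher in 2 of 2 lines, with 0.0741 to 1.0 over the alternatives. Over the 10 genes the edgeR adjusted p ran from 0.348 to 0.969 for TP63, 0.446 to 0.859 for SOX2 and 0.145 to 0.826 for TP63 against SOX2 silencing. The background was 0.0% of 26387 features called for TP63, 0.0% for SOX2 and 1.99% for TP63 against SOX2. At an unadjusted edgeR p under 0.05, 1949 features were lower and 1392 higher for TP63, and 1111 and 1038 for SOX2, while DESeq2 called 1465 and 557, and 494 and 261. The test has 2 residual degrees of freedom. Without either scramble library 0 features were called in any of the 3 contrasts, and with genes alone as features 227 were lower and 68 higher for TP63.

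**Figure D5:**
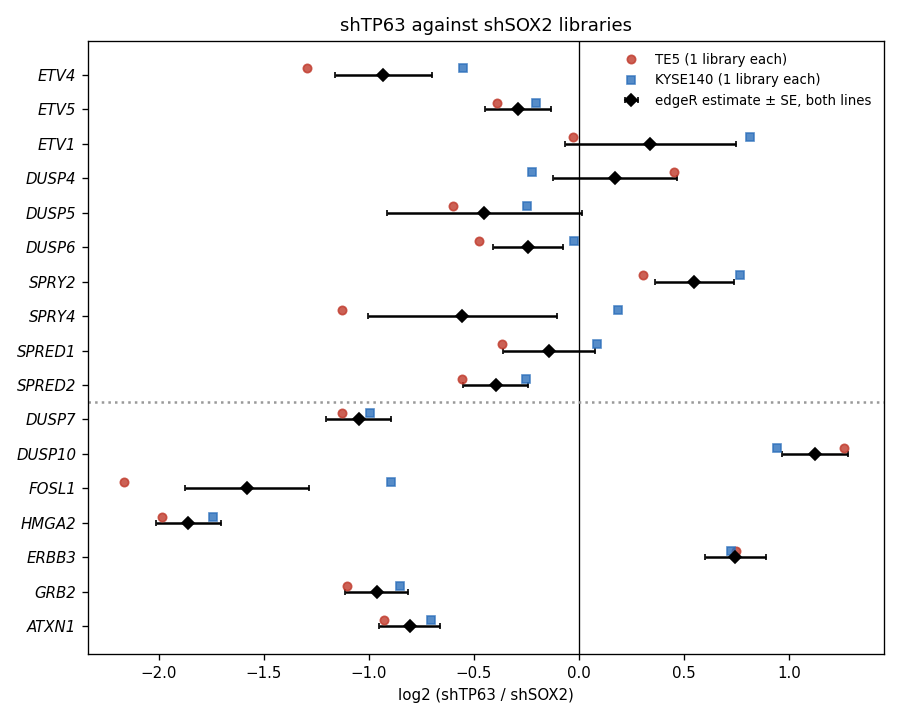
Log2 difference of shTP63 against shSOX2 (x axis) for the 10 genes above the dotted line and 7 related genes that passed the test below it. Circles and squares are single library pairs of TE5 and KYSE140, and diamonds with bars are edgeR estimates ± SE. *ETV4* lies below 0 in both lines, and *SPRY2* above.

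Relatives of the 10 genes were read from lists of the pathway. For shTP63 against shSOX2 edgeR called 1.99% of all features. Of 10 further feedback genes, 2 passed edgeR's test for shTP63 against shSOX2: *DUSP7*, another ERK phosphatase, was lower (-1.05 ± 0.16, edgeR adjusted p = 0.0664) and *DUSP10*, a phosphatase of JNK and p38, was higher (1.12 ± 0.16, edgeR adjusted p = 0.0627). *DUSP7* had 4461, 2185, 4772 and 4244 normalized counts in TE5 scramble, shTP63, shSOX2 and shCCAT1, and 3932, 2496 and 4977 in KYSE140 scramble, shTP63 and shSOX2, so that shTP63 was lowest in both lines. *DUSP9*, a further ERK phosphatase, was below scramble in all 5 comparisons, by -0.35 to -1.30. *DUSP8* and *DUSP1* were above scramble upon TP63 silencing, at 1.59 and 1.53 in TE5 and at 0.84 and 0.24 in KYSE140. Of the 10 further feedback genes 7 were above 0 in TE5 shTP63 and 3 below it (47.0% of all genes below). In that library 3 were past 1 and 2 past -1 (14.4% and 5.64% of all genes). In KYSE140 shTP63 8 were above 0, 2 were below it and 0 were past a limit. *DUSP10*, *HMGA2*, *GRB2* and *ATXN1* were chosen for naming after their values were seen, because they passed the test. Without either scramble library none of the 7 list genes named as passing did so, with an edgeR adjusted p of 0.232 for *DUSP7* and *DUSP10* without the KYSE140 scramble.

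Of 20 other genes of ERK output 2 passed (1.99% of all features), both lower in shTP63 than in shSOX2: *HMGA2*, an architectural chromatin protein (-1.86 ± 0.15, edgeR adjusted p = 0.0417), and *FOSL1*, the AP-1 subunit FRA1 (-1.58 ± 0.30, edgeR adjusted p = 0.0907). *FOSL1* had 7796, 3648, 16358 and 5705 normalized counts in TE5 scramble, shTP63, shSOX2 and shCCAT1, and 371, 234 and 437 in KYSE140 scramble, shTP63 and shSOX2. Its order in TE5 (shSOX2, scramble, shCCAT1, shTP63) resembled that of *ETV4* except that shCCAT1 was the lowest for *ETV4*. *MYC* was -1.80 in TE5 shTP63 and -0.82 in KYSE140 shTP63. *TNFRSF12A* was higher in shTP63 of both lines, at 12912 normalized counts against 8927 in TE5 scramble and 4766 against 3058 in KYSE140 scramble. *FOSB* was higher in TE5 shTP63 (6384 against 2899) and lower in KYSE140 shTP63 (369 against 553). *IER3* was lower in both (6000 against 7705 and 30840 against 45395). *CCND1*, the G1 cyclin, was higher in shSOX2 of both lines, at 0.87 and 0.51, while *PHLDA1* stayed within -0.30 and 0.20. Over this list the median difference was 0.34 in TE5 shSOX2, with 18 of 20 genes above 0 (49.3% of all genes) and 3 past 1 (6.15%). In TE5 shCCAT1 the median was -0.20, with 15 of 20 below 0 (47.1% of all genes) and 0 past -1 (5.77%). The median was 0.26 in TE5 shTP63, with 8 of 20 below 0, -0.34 in KYSE140 shTP63, with 15 of 20 below 0 and 1 past -1 (4.18% of all genes), and 0.12 in KYSE140 shSOX2, with 13 of 20 above 0. In these comparisons 47.0% of all genes were below 0, 45.6% below 0 and 54.5% above 0.

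Upstream, *EGFR*, the receptor that feeds the cascade in squamous cells, was at -0.36 and -0.29 in shTP63 of TE5 and KYSE140, at -0.53 in TE5 shCCAT1, and at 0.10 and 0.57 in shSOX2. It was the lowest of the 11 EGFR family receptors and ligands in TE5 shTP63. There 9 of the 11 were above 0 and 2 below it (47.0% of all genes below), with a median of 0.77. Past 1 lay 5 of them (14.4% of all genes) and past -1 0. In KYSE140 shTP63 8 could be compared, 4 above 0 and 4 below it, with a median of 0.04. Of 11 EGFR family receptors and ligands 1 passed edgeR's test, *ERBB3*, higher in shTP63 than in shSOX2 (0.75 ± 0.14, edgeR adjusted p = 0.0968). The share called over all features in that contrast, for this and the following lists, was 1.99%. Of the 5 FGF receptors and the FGF binding protein *FGFBP1* 0 passed, with *FGFRL1* at -2.10 and -1.03 in shTP63 of TE5 and KYSE140 and *FGFR2* at -1.29 and -0.51. Of 21 genes of the RAS-ERK cascade 1 passed, the adaptor *GRB2*, lower in shTP63 than in shSOX2 (-0.96 ± 0.15, edgeR adjusted p = 0.0682), and *MAP2K1*, which encodes MEK1, was -1.15 in TE5 and -0.73 in KYSE140 for shTP63. Among 9 regulators of the PEA3 factors *ATXN1*, a partner of CIC, passed (-0.81 ± 0.14, edgeR adjusted p = 0.0835), while *CIC* itself was -0.08 to -0.38 in all 5 comparisons with scramble. Of 19 other ETS factors and 8 proteases known as PEA3 targets 0 passed for shTP63 against shSOX2. In KYSE140 shSOX2 8 of the 8 proteases were above 0 (median 1.145, 54.5% of all genes) and 5 past 1 (6.77%). In TE5 shSOX2 4 were above 0 and 4 below it. For shTP63 against shSOX2 6 were past -1 in KYSE140 (6.57% of all genes) and 2 in TE5 (6.29%). Some had few counts, with *MMP1* at 18 and *MMP7* at 10 normalized counts in KYSE140 scramble. *PLAU*, the urokinase gene, was 1.09 in TE5 shSOX2 and 1.10 in KYSE140 shSOX2, and *ELK3* was -0.98 and -1.18 in the shTP63 libraries.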

How the data were processed

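RNA-Seq of 7 libraries (paired-end, 100 bp) was measured in TE5 (4) and KYSE140 (3) cells. The authors pseudoaligned reads with Kallisto (version not given in the sources used here) to Ensembl transcripts of hg19. The authors deposited an estimated count and a TPM value per transcript. Estimated counts summed to 68532611 to 98036494 per library. The estimates were summed to genes with GENCODE 44 on hg19 (93.577% of counts), a further 3.724% belonged to transcripts absent from that annotation and were assigned where the neighbours on both sides in the deposited table were of 1 gene (left out in an alternative), and 2.699% stayed unassigned.

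Counts were normalized with TMM in edgeR 4.0.16 (R 4.3.3). Library pairs were compared as log2((first + 1)/(second + 1)) without a test, where either library reached 10 counts, and called past -1 or 1. TPM was used for levels and as an alternative, with a pseudocount of 0.01. For the lines together, counts rounded to whole numbers of 6 libraries entered edgeR's quasi-likelihood test with cell line as block and the filterByExpr filter. Unassigned transcripts were kept as features there. That choice was settled after the fit of genes alone had been seen, and it decides whether features are called. The script was tested on simulated data. Cell lines stand in as replicates and the block takes up the level of each line. The p-values therefore set the mean difference between conditions against a residual variation that includes how far that difference varies from line to line.

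The members, lists and tests were chosen with earlier results of these data known. Named were all members, the silenced genes, up to 4 genes of each list with the largest mean difference or a fixed place, the 5 genes nearest to *ETV4*, and transcripts with at least 10% of a member's counts. Promoter, shared-word and first exon steps were added after values were seen. Alternatives of scaling, pseudocount, unit, transcripts, filter, test, block and libraries were run, with DESeq2 1.42.0 as a further test. Python 3.11.15 was used.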

Additional observations from a re-analysis of the deposited data

Results flagged for a closer look

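For 7 results the lines moved opposite ways under the same silencing, with both counting intervals clear of 0. With 1 library per condition and line, the difference between lines was not tested. Upon TP63 silencing *DUSP5* was 1.48 in TE5 and -0.26 in KYSE140 on the log2 scale, 1.74 apart. *SPRY4* was 0.25 and -0.31, 0.56 apart, and *SPRED1* was 0.24 and -0.11, 0.36 apart; on the TPM scale the KYSE140 value of *SPRED1* turned, to 0.04. Upon SOX2 silencing *SPRY4* was 1.38 in TE5 and -0.49 in KYSE140, 1.87 apart, the widest gap. *ETV1* was 1.27 and -0.47, 1.74 apart. *ETV4* was 0.70 and -0.13, 0.83 apart, and *SPRED1* was 0.61 and -0.20, 0.81 apart. SOX2 itself was at 39.5% of scramble in TE5 and 76.6% in KYSE140, and the TE5 comparisons also cross flow cells, so line, depth of silencing and sequencing run cannot be told apart.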

How the results depend on the processing

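Of 69 differences of the 10 genes, 68 kept their sign with DESeq2's size factors, 64 without scaling and 59 with TPM. With protein-coding transcripts alone 69 did, and so did 69 without the transcripts placed by their neighbours. The larger pseudocount and the other count minimums could not change a sign. *ETV4* kept its sign in all 7 comparisons. On the TPM scale *ETV4* moved from -0.59 to -0.34 in TE5 shTP63 and from -0.13 to -0.31 in KYSE140 shSOX2. In KYSE140 shTP63 against shSOX2 it moved from -0.55 to -0.27. The number of the 10 genes lower past the limit went from 0 to 1 in TE5 shCCAT1 with DESeq2's size factors and with protein-coding transcripts alone, and from 2 to 1 in TE5 shTP63 against shSOX2 without scaling and with TPM. In KYSE140 shSOX2, TPM moved the split over all genes from 1291 lower and 1408 higher to 1729 and 1244. The edgeR calls were the least stable. Features lower and higher for TP63 were 0 and 0, with DESeq2 1465 and 557, without a filter 466 and 203, with all 7 libraries 4 and 1, and with genes alone (added after seeing the data) 227 and 68. For SOX2 they were 0 and 0, with DESeq2 494 and 261, without a filter 130 and 54, with all 7 libraries 24 and 5, with genes alone 32 and 9, and 15 lower with DESeq2's size factors in edgeR. For TP63 against SOX2 they were 327 and 199, with DESeq2 1744 and 1059, without a filter 820 and 596, and with genes alone 672 and 477. Without the cell line block they were 0 and 0 in all 3 contrasts. Leaving out 1 library gave 0 to 827 lower and 0 to 493 higher for TP63, 0 to 335 and 0 to 145 for SOX2, and 0 to 961 and 0 to 635 for TP63 against SOX2, with 0 whenever a scramble library was left out; a condition left with 1 library is then assumed to vary like the others. The *ETV4* estimate for SOX2 ran from -0.14 (edgeR, adjusted p = 0.951), reversed, without TE5 shSOX2 to 0.68 without KYSE140 shSOX2. The cause was not tested. Intervals cover counting error only, and with 1 library per condition and line the spread between cultures is unknown.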
